A study of Homo sapiens with 9 samples.

Results

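The genes described here make ribosomes. They are 34 named genes of ribosome biogenesis and RNA polymerase I, with MYC and ODC1 counted among them, out of 20435 genes in the deposited table. Each was taken from its row with the highest mean over the 9 libraries, and all 34 were expressed highly enough to be tested, as were 12403 genes in all. RNA came from PC9, a line of human lung adenocarcinoma cells whose growth is driven by mutant EGFR, the epidermal growth factor receptor. The cells carried the FUCCI4 cell cycle reporter (the labels name mKO2-CDT1 and Clover-GMNN). The 4 day 28 libraries were from cells kept for 28 days in 500 nM osimertinib, an inhibitor of mutant EGFR, dissolved in DMSO. They were a G1 library of clone 1, a G1 library of clone 7, an S library of clone 1 and a G2 library of clone 1. The 5 day 0 libraries were labelled untreated. They were G1 and S libraries of clones 1 and 7 and a G2 library of clone 1. All cells carried the reporter and were fixed with glyoxal, permeabilised with saponin and sorted on DNA content and reporter fluorescence. The labels do not say whether libraries of 1 clone came from separate cultures, so p-values measure the spread between these libraries, which may in part be technical.

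A ribosome is assembled in the nucleolus. RNA polymerase I transcribes the long precursor of the ribosomal RNAs (rRNAs), box C/D and box H/ACA small nucleolar ribonucleoproteins (snoRNPs) modify its nucleotides, and large sets of assembly factors cut and fold it into the small and large subunits. MYC, a transcription factor that binds the E-box word CACGTG together with MAX, is known to raise the expression of many of these genes, and in EGFR-driven lung cancer cells its own expression lies downstream of growth factor signalling. Poly(A) RNA holds the mRNAs of these factors and not the rRNA itself, so the libraries report on the machinery and not on rRNA output.

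Over 1 coding span per gene the libraries held 8.83 to 108.7 M (mega) reads, the smallest being day 0 G1 clone 7. These are reads recovered from the deposited values, with a mean of 43.0 M, while the labels give about 24 M reads a library. The gap was not resolved, so read totals, read counts and intervals hold for recovered reads. Mitochondrial mRNAs took 19.6% and 8.61% of reads in day 28 G1 clones 1 and 7, 21.6% in day 28 S and 15.8% in day 28 G2, against 6.07 to 10.7% on day 0. Summed epithelial markers were 12210 to 23515 RPM (reads per M) on day 28 and 18966 to 29958 on day 0, and none of the 8 was at 0 in any library. By the test of days described below, 5 of the 8 fell and 0 rose, against 26.5% and 28.6% of all tested genes. Leukocyte markers summed to 11.1 to 22.5 RPM on day 28, against 7.82 to 16.5 on day 0, and 5 of 7 were at 0 in at least 1 library (PTPRC, CD3E, CD14, LYZ and MS4A1). Fibroblast and endothelial markers summed to 20.4 to 53.9 on day 28, against 19.3 to 26.6 on day 0, and 5 of 10 were at 0 in at least 1 library (COL1A2, COL3A1, DCN, LUM and PDGFRB). By the same test, CD68 (-2.80 ± 0.46) fell and ITGAM (1.22 ± 0.36) rose among the 2 leukocyte markers that could be tested, and PECAM1 (-2.50 ± 0.47) and CDH5 (-1.85 ± 0.49) fell among the 3 of fibroblasts and endothelium, as log2 fold changes with SE in limma. The part of these shares in the results below was not tested, except where a value is given with mitochondrial reads left out.

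Promoter sequences are shown first, because the E-box word sits at the start of many of these genes. RefSeq promoters of GRCh38.p14, each from 250 bases before to 50 bases after a start, were matched by symbol for 28 of the 34 genes. NOP58, RRP12, BOP1, RRP1B, NOLC1 and MYC had no entry. The word CACGTG, which reads the same on both strands and was the only motif searched, was in 13 of the 28 (46.4%), and in all 13 at least 1 copy lay within 50 bases of a start. It was in 12.5% of the 9874 tested genes with an entry, and within 50 bases of the start in 5.38% of them. Counted per promoter window, 36.1% of the 36 windows of these genes held it, against 9.18% of the windows of tested genes and 7.26% of all windows. The share describes this list of genes and is not a test. Windows of 30 bases around the word are given for genes that fell in several roles (FBL, WDR43, NOP14, PES1 and both copies in ODC1) and for GNL3 and DDX21, which did not pass the test, with the word in capitals and each strand read 5′ to 3′. In NOP10 the word occurs at both ends of a 190 base stretch that stops just before the start.
FBL: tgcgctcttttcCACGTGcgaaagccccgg
WDR43: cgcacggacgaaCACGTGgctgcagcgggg
NOP14: tccgcggcccggCACGTGtcttagggtagc
PES1: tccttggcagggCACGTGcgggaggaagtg
ODC1: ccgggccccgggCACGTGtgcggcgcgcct
ODC1: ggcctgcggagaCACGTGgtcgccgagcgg
GNL3: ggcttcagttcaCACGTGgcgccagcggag
DDX21: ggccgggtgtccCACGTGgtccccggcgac
NOP10: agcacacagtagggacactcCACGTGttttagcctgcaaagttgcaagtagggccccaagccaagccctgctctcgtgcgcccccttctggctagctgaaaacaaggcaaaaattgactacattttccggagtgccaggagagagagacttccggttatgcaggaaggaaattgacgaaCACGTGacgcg
The FBL window is chr19:39846356-39846385 on the minus strand, that of WDR43 chr2:28894658-28894687 on the plus strand, that of NOP14 chr4:2963374-2963403 on the minus strand and that of PES1 chr22:30591880-30591909 on the minus strand. The ODC1 windows are chr2:10448024-10448053 on the minus strand and chr2:10447990-10448019 on the minus strand. The GNL3 window is chr3:52686026-52686055 on the plus strand, that of DDX21 chr10:68956604-68956633 on the plus strand and the NOP10 stretch chr15:34343137-34343326 on the minus strand. The other genes with the word were RRP9, GAR1, BYSL, NOP2 and UTP20. Day 28 against day 0, the 13 genes with it had a median log2 fold change of -0.96 and 11 fell, while the 15 without it had a median of -0.84 and 11 fell. By the same test, described in the next paragraph, 26.5% of all tested genes fell. The word is a match of letters in these windows, not a measured binding site.

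Most of the machinery was lower on day 28 than on day 0. With phase as a term in the fit (limma, Benjamini-Hochberg adjusted p under 0.05, all 9 libraries), 26 of the 34 genes fell and 0 rose. Of all tested genes 26.5% fell and 28.6% rose. At an unadjusted p under 0.05 there were 28, against 60.6% of all tested genes. The median log2 fold change over the 34 was -0.87, against 0.02 over all tested genes. All 34 estimates were below 0, from -1.81 for NHP2 to -0.19 for RRP1B, except that GNL3 turned to 0.05 (limma adjusted p = 0.809) with quantile scaling. In 19 of the 34 all 4 day 28 libraries lay below all 5 day 0 libraries, a pattern found in 18.9% of tested genes. In bulk RNA, fewer cells of a type and less RNA per cell cannot be told apart. Values below are log2 values after 1 was added to the deposited values on the linear scale. On day 28 their order is G1 clone 1, G1 clone 7, S and G2. On day 0 it is G1 clone 1, G1 clone 7, S clone 1, S clone 7 and G2. Fold changes are log2 with their SE.

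**Figure D1:**
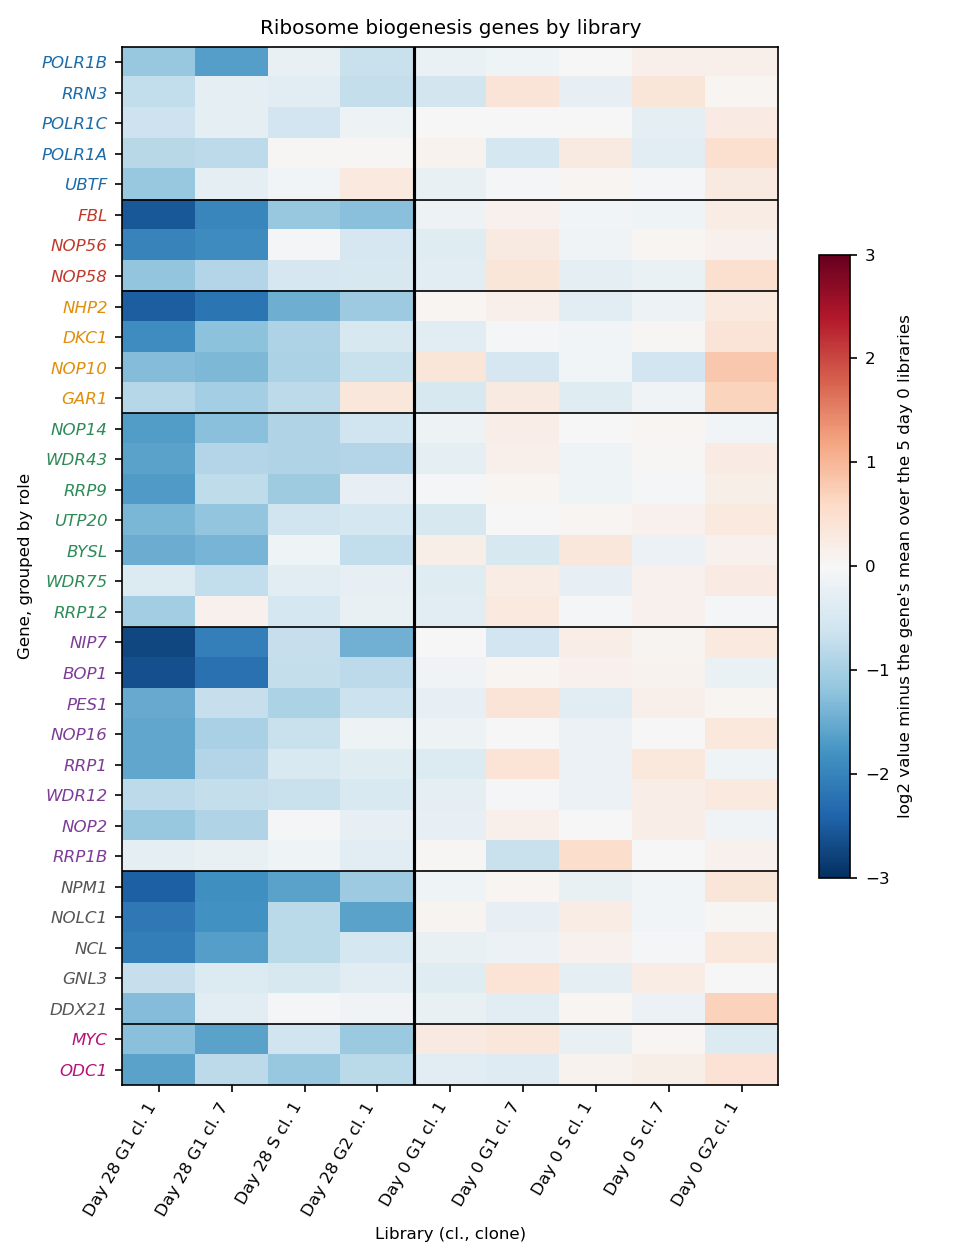
Each row is 1 of the 34 genes, grouped and coloured by role, and each column a library, with day 28 left of the vertical line and day 0 right of it. Colour is the log2 value minus the gene's mean over the 5 day 0 libraries. The 2 day 28 G1 columns hold the deepest blues, led by NIP7, NHP2, BOP1, FBL and NPM1, while RRP1B and GNL3 stay pale.

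RNA polymerase I and its factors had the smallest median change of the roles, -0.44, against -1.23 for the abundant nucleolar proteins. The median coding spans of these roles were 34.1 and 9.86 kb, and longer genes tended to be higher on day 28. The small subunit factors, at 33.9 kb, had a median change of -0.88. The part of span in these differences was not tested. Of the 5 RNA polymerase I genes, POLR1B and POLR1C fell, against 26.5% of all tested genes. POLR1B (ENSG00000125630, chr2:112542152-112575729, plus strand), a large catalytic subunit of RNA polymerase I, had 11.03, 10.52, 11.94 and 11.51 on day 28, against 11.98, 12.05, 12.20, 12.32 and 12.32 on day 0. Every day 28 value was below every day 0 value, and both G1 libraries were the lowest. The fold change was -0.86 ± 0.22 (limma adjusted p = 0.00680, 1.81-fold lower). POLR1A (ENSG00000068654, chr2:86027423-86105776, minus strand), the largest subunit, had 10.43, 10.49, 11.30 and 11.31 on day 28 and 11.38, 10.73, 11.53, 10.95 and 11.74 on day 0. Its day 28 G1 values were the lowest of the 9, but the day 28 S and G2 values lay inside the day 0 range. The fold change of -0.36 ± 0.24 did not pass (limma adjusted p = 0.219). With the trend over span removed POLR1A did pass (-0.76, limma adjusted p = 0.0265). UBTF (ENSG00000108312, chr17:44207184-44218229, minus strand), which binds rDNA and opens its chromatin, had 12.67, 13.50, 13.71 and 14.09 on day 28 and 13.57, 13.76, 13.87, 13.74 and 14.07 on day 0. Its highest value of all was day 28 G2 and its lowest day 28 G1 clone 1, and -0.29 ± 0.21 did not pass (limma adjusted p = 0.265). From its deposited row with the narrowest span UBTF did pass (-0.67, limma adjusted p = 0.0379). Over all genes tested on their narrowest rows the median was -0.39. RRN3 (ENSG00000085721, chr16:15060168-15094233, minus strand), the factor that carries the polymerase to its promoter, had 11.92, 12.38, 12.32 and 11.96 on day 28 and 12.11, 13.05, 12.41, 13.02 and 12.71 on day 0. The groups overlapped and -0.49 ± 0.24 did not pass (limma adjusted p = 0.101), although it did without day 0 G1 clone 1 (-0.68, limma adjusted p = 0.0303). POLR1C, a subunit shared with RNA polymerase III, had 12.84, 13.15, 12.88 and 13.31 on day 28, against 13.44, 13.46, 13.47, 13.19 and 13.70 on day 0, with overlap between the groups. Its fold change was -0.44 ± 0.17 (limma adjusted p = 0.0432). That call was lost when any 1 library other than day 28 G1 clone 7 was left out, with adjusted p from 0.0592 to 0.113 in limma.

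Among the snoRNPs every gene fell, against 26.5% of all tested genes. FBL (ENSG00000105202, chr19:39834538-39846300, minus strand), fibrillarin, the methyltransferase of the box C/D particles, had 13.23, 13.81, 14.61 and 14.51 on day 28, against 15.61, 15.90, 15.67, 15.64 and 15.98 on day 0. The gap between the groups was wide, and the highest day 28 value, in S, was well under the lowest day 0 value. The fold change was -1.69 ± 0.24 (limma adjusted p = 0.000248, 3.23-fold lower). NOP56 and NOP58 are the paired scaffold proteins of the same particles. NOP58 (ENSG00000055044, chr2:202265942-202303436, plus strand) had 13.73, 14.04, 14.41 and 14.45 on day 28, against 14.58, 15.28, 14.63, 14.72 and 15.41 on day 0, with no overlap, and a fold change of -0.78 ± 0.22 (limma adjusted p = 0.00986). NOP56 (ENSG00000101361, chr20:2652661-2658294, plus strand) had 14.02, 14.12, 15.96 and 15.51 on day 28, against 15.66, 16.28, 15.92, 16.08 and 16.16 on day 0. Here the G1 values were far below day 0, while the day 28 S value lay inside the day 0 range. Over phases it changed by -1.04 ± 0.31 (limma adjusted p = 0.0142), a call lost without day 28 G1 clone 1 (-0.86, limma adjusted p = 0.0508).

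The 4 proteins of the box H/ACA particles, which turn uridine into pseudouridine and also belong to telomerase, fell too. NHP2 (ENSG00000145912, chr5:178149713-178153817, minus strand) had 12.05, 12.33, 13.05 and 13.41 on day 28, against 14.56, 14.66, 14.18, 14.35 and 14.79 on day 0. Its groups did not overlap and its fold change, -1.81 ± 0.23, was the largest of the 34 (limma adjusted p = 0.000155, 3.51-fold lower). DKC1, dyskerin, the pseudouridine synthase itself, averaged 13.54 ± 0.57 on day 28 and 14.67 ± 0.26 on day 0 (SD, n = 4 and 5), with a fold change of -1.12 ± 0.19 (limma adjusted p = 0.000755). NOP10, the smallest protein of the particle, averaged 12.04 ± 0.32 on day 28 and 13.11 ± 0.58 on day 0 (SD, n = 4 and 5). NOP10 changed by -1.11 ± 0.23 (limma adjusted p = 0.00224), and neither gene's groups overlapped. GAR1 (ENSG00000109534, chr4:109816165-109824431, plus strand), which joins the particle last and replaces an assembly factor, had 11.12, 10.95, 11.18 and 12.32 on day 28, against 11.50, 12.25, 11.60, 11.86 and 12.64 on day 0. Its G1 and S libraries of day 28 were below day 0 and its G2 library was not. The fold change was -0.63 ± 0.21 (limma adjusted p = 0.0269). The call was lost without day 0 G1 clone 7, day 0 S clone 7, either day 28 G1 library or day 28 S, with limma adjusted p from 0.054 to 0.0763.

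Of the 7 factors of the small subunit, 5 fell, against 26.5% of all tested genes. NOP14 (ENSG00000087269, chr4:2938213-2963319, minus strand), a structural factor of the early small subunit particle, had 11.30, 11.74, 12.10 and 12.38 on day 28, against 12.84, 13.18, 12.98, 13.03 and 12.91 on day 0. The groups were clearly apart, with -1.09 ± 0.21 (limma adjusted p = 0.00149). WDR43, which links rDNA transcription to processing of the precursor, changed by -1.06 ± 0.20 (limma adjusted p = 0.00126). RRP9, a protein of the U3 snoRNP, changed by -0.97 ± 0.23 (limma adjusted p = 0.00398). UTP20, a very large scaffold protein, changed by -0.88 ± 0.19 (limma adjusted p = 0.00227), and as in WDR43 and RRP9 its day 28 values were all below its day 0 values. BYSL, bystin, a factor of late small subunit maturation, changed by -0.86 ± 0.25 (limma adjusted p = 0.0119), with its day 28 S value of 12.21 inside the day 0 range. RRP12 (ENSG00000052749, chr10:97357094-97401231, minus strand), a factor of subunit maturation and export, had 12.66, 13.83, 13.17 and 13.48 on day 28 and 13.37, 13.98, 13.63, 13.84 and 13.67 on day 0. Clone 7 in G1 was as high as on day 0, the groups overlapped, and -0.42 ± 0.25 did not pass (limma adjusted p = 0.172). It did pass without day 28 G1 clone 7 (-0.63, limma adjusted p = 0.0336). WDR75, a partner of WDR43, did not pass at -0.44 ± 0.19 (limma adjusted p = 0.0730), and did at the margin without day 0 G1 clone 1 (-0.54, limma adjusted p = 0.04995).

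Of the 8 factors of the large subunit, 7 fell, against 26.5% of all tested genes. NIP7 (ENSG00000132603, chr16:69339830-69341652, plus strand), a factor of late precursor processing, had 9.31, 9.99, 11.37 and 10.62 on day 28, against 12.05, 11.48, 12.24, 12.13 and 12.34 on day 0. Its 9.31 in day 28 G1 clone 1 rested on 232 reads and its 9.99 in clone 7 on 411, and all 4 values were below day 0. The fold change was -1.63 ± 0.27 (limma adjusted p = 0.000630, 3.09-fold lower). PES1, BOP1 and WDR12 form the PeBoW complex, which is needed to make the rRNAs of the large subunit, and all fell without overlap between the groups. BOP1 (ENSG00000261236) had 12.36, 12.76, 14.28 and 14.21 on day 28, against 14.90, 15.05, 15.13, 15.09 and 14.81 on day 0, and -1.51 ± 0.30 as fold change (limma adjusted p = 0.00164). Its G1 values stood well under its own S and G2 values of the same day. PES1 averaged 14.47 ± 0.40 on day 28 and 15.41 ± 0.29 on day 0 (SD, n = 4 and 5) and changed by -0.96 ± 0.23 (limma adjusted p = 0.00511). WDR12 changed least of the complex, by -0.66 ± 0.18 (limma adjusted p = 0.00892). NOP16, a nucleolar factor of large subunit assembly, changed by -0.84 ± 0.20 (limma adjusted p = 0.00503). RRP1, a factor of late large subunit processing, changed by -0.78 ± 0.26 (limma adjusted p = 0.0250), a call lost without day 0 G1 clone 7 (limma adjusted p = 0.0644) or day 28 G1 clone 1 (0.0820). NOP2, an rRNA cytosine methyltransferase, changed by -0.53 ± 0.21 (limma adjusted p = 0.0495), and lost the call without any 1 of the day 0 or day 28 G1 libraries or either day 0 S library (limma adjusted p from 0.0531 to 0.135). With the clone as a block NOP2 did not pass either (-0.50, limma adjusted p = 0.054). RRP1B (ENSG00000160208, chr21:43659665-43693383, plus strand), a paralog of RRP1, had 10.47, 10.49, 10.60 and 10.39 on day 28 and 10.77, 10.06, 11.25, 10.71 and 10.85 on day 0. Its day 28 values fell inside the day 0 range and -0.19 ± 0.24 did not pass (limma adjusted p = 0.526).

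The abundant proteins that fill the nucleolus split into 3 that fell and a pair that did not pass, while 26.5% of all tested genes fell. NPM1 (ENSG00000181163, chr5:171387949-171410565, plus strand), nucleophosmin, which gives the nucleolus its outer layer, had 16.47, 17.08, 17.31 and 17.82 on day 28, against 18.78, 18.97, 18.70, 18.83 and 19.29 on day 0. The groups were far apart, and the day 28 G1 libraries were lowest. The fold change was -1.75 ± 0.25 (limma adjusted p = 0.000248, 3.37-fold lower). NCL (ENSG00000115053, chr2:231455124-231464353, minus strand), nucleolin, had 15.60, 16.01, 16.87 and 17.15 on day 28, against 17.46, 17.50, 17.80, 17.64 and 17.99 on day 0, and -1.23 ± 0.23 as fold change (limma adjusted p = 0.00122). The day 28 values were lowest in G1, and none reached the day 0 range. With quantile scaling NCL did not pass (-0.25, limma adjusted p = 0.319). NOLC1, a chaperone of snoRNPs, averaged 11.81 ± 0.57 on day 28 and 13.41 ± 0.18 on day 0 (SD, n = 4 and 5) and changed by -1.53 ± 0.22 (limma adjusted p = 0.000272). DDX21 (ENSG00000165732, chr10:68956226-68982812, plus strand), an RNA helicase of the nucleolus, had 11.84, 12.83, 13.09 and 13.04 on day 28 and 12.92, 12.80, 13.20, 12.97 and 13.83 on day 0. Only its clone 1 G1 library stood low, and -0.42 ± 0.23 did not pass (limma adjusted p = 0.144), although it did without day 28 G1 clone 7 (-0.58, limma adjusted p = 0.0473). GNL3, nucleostemin, did not pass at -0.48 ± 0.21 (limma adjusted p = 0.0744), and did without day 0 G1 clone 1 (-0.60, limma adjusted p = 0.0462). Its result depended on the row used. From its deposited row with the narrowest span GNL3 passed at -1.37 (limma adjusted p = 0.000576). Over all genes tested on their narrowest rows the median was -0.39.

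MYC and its classical target ODC1 fell with the machinery. MYC (ENSG00000136997) had 12.77, 12.43, 13.44 and 12.92 on day 28, against 14.30, 14.36, 13.80, 14.09 and 13.62 on day 0. All day 28 values were below all day 0 values, and the 2 G1 libraries were the lowest. The fold change was -1.12 ± 0.24 (limma adjusted p = 0.00241, 2.17-fold lower). ODC1 (ENSG00000115758, chr2:10440724-10445032, minus strand), the rate-limiting enzyme of polyamine synthesis, had 13.45, 14.26, 13.92 and 14.23 on day 28, against 14.73, 14.66, 15.16, 15.23 and 15.48 on day 0, again with no overlap. Its fold change was -1.07 ± 0.20 (limma adjusted p = 0.00130).

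**Figure D2:**
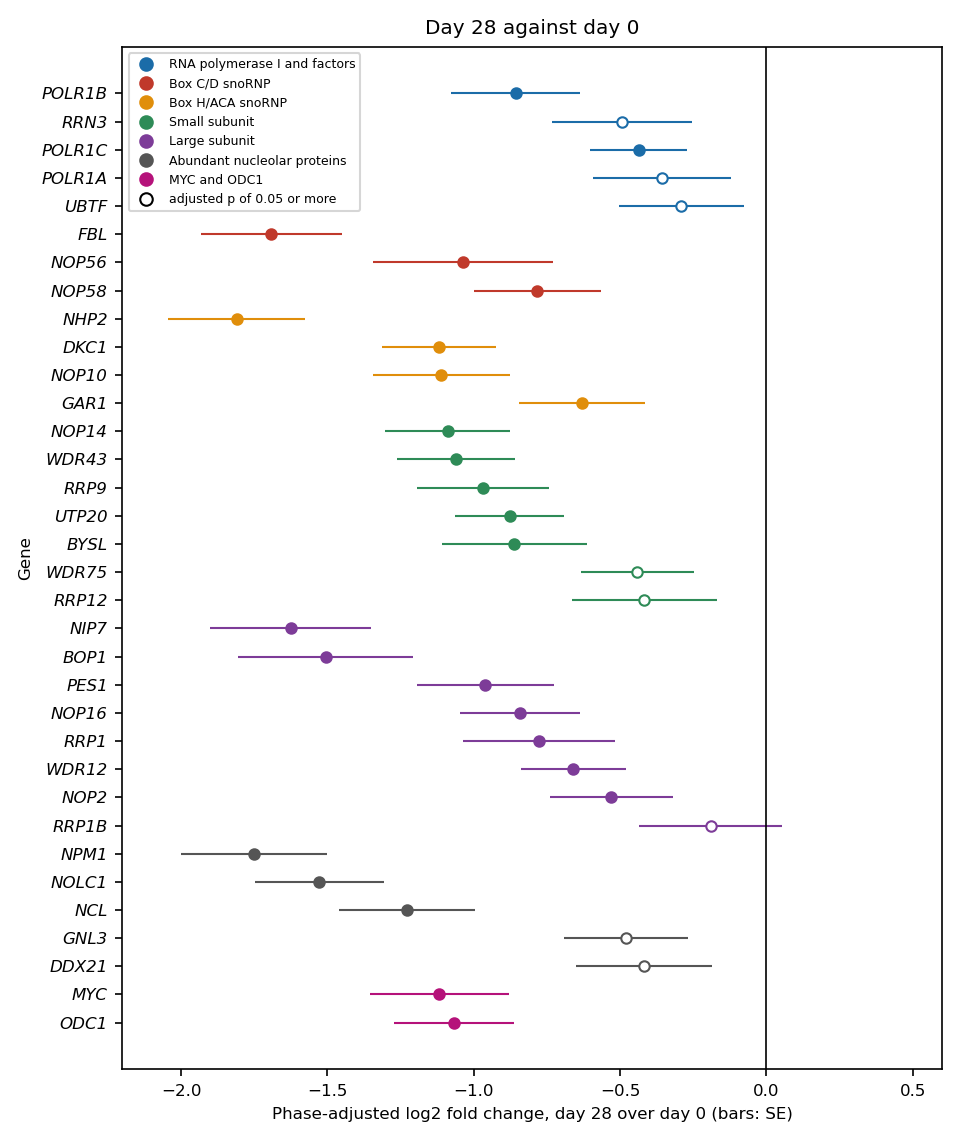
Points are the phase-adjusted log2 fold changes of the 34 genes, day 28 over day 0, with bars of 1 SE, coloured by role. Open points did not pass an adjusted p of 0.05. RRP1B and UBTF sit nearest 0, at -0.19 and -0.29, and BOP1, NOLC1, NIP7, FBL, NPM1 and NHP2 lie from -1.51 to -1.81.

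Several counts can mix sources. The labels do not say whether reads were counted by strand, and POLR1C overlaps XPO5, RRN3 overlaps PDXDC1, NHP2 overlaps RMND5B, BOP1 overlaps SCX, NOP16 overlaps ARL10 and NIP7 overlaps AC026464.1 and AC026464.3 on the opposite strand. UBTF, NOP14, RRP12 and POLR1C overlap antisense RNAs. NOP2 shares its strand with the annotated gene AC006064.6 and RRP12 with the pseudogene RPL34P20. The annotation also names 45 pseudogenes after NPM1, 3 each after RRN3, NOP56 and NIP7, and 2 each after NHP2, PES1 and NCL, between which the counting could split reads, so the levels of these genes are uncertain.

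Summed over the 34 genes, their reads were 0.416% of all reads in day 28 G1 clone 1, 0.587% in day 28 G1 clone 7, 0.740% in day 28 S and 0.870% in day 28 G2. On day 0 they were 1.18% in both G1 libraries, 1.26% and 1.20% in S and 1.38% in G2. The exact 95% binomial intervals were narrow, at most 1.17 to 1.19% in the shallowest library, and cover counting error only, since the reads carry no molecular identifiers. With mitochondrial reads left out the shares were 0.517, 0.643, 0.944 and 1.03% on day 28, against 1.26 to 1.48% on day 0. NPM1 and NCL alone made up 0.209 to 0.504% of non-mitochondrial reads on day 28 and 0.687 to 0.852% on day 0. The other 32 genes made up 0.308 to 0.545% on day 28 and 0.559 to 0.633% on day 0.

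Levels can be compared between genes per kilobase of coding span, introns included, and per M reads. NCL stood highest on both days, at 118 ± 51.5 on day 28 and 219 ± 34.4 on day 0 (SD, n = 4 and 5). NPM1 followed at 79.3 ± 27.7 on day 28 and 210 ± 23.0 on day 0. Within each day 28 library NCL was above NPM1 (64.5, 86.6, 143 and 177 against 48.1, 74.2, 79.6 and 115). On day 0 the order of NCL and NPM1 varied between libraries. Their difference was not tested. NOP56 was at 72.9 ± 43.8 on day 28 and 113 ± 10.7 on day 0. At the bottom stood POLR1A, at 0.288 ± 0.0836 on day 28 and 0.313 ± 0.0920 on day 0, with UTP20 and RRP1B just above it. POLR1B, of the same enzyme, was at 0.887 ± 0.330 on day 28 and 1.32 ± 0.145 on day 0. Because introns are in the length, a gene with long introns reads low on this scale.

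The days were also compared within each sorted phase. Within G1, where both days have both clones, 22 of the 34 genes fell and 0 rose, against 19.1% of all tested genes lower and 19.9% higher. The median was -1.18, against 0.02 over all tested genes. The largest G1 changes were -2.42 ± 0.24 for NHP2 (limma adjusted p = 0.00233, 5.36-fold lower), -2.41 ± 0.25 for BOP1 (limma adjusted p = 0.00245), -2.23 ± 0.28 for FBL (limma adjusted p = 0.00305), -2.12 ± 0.34 for NIP7 (limma adjusted p = 0.00486) and -2.10 ± 0.36 for NPM1 (limma adjusted p = 0.00571). MYC changed by -1.73 ± 0.25 (limma adjusted p = 0.00377). The 12 that did not pass in G1 included POLR1C, GAR1, WDR12 and ODC1, which had passed over phases. The count shrank without day 28 G1 clone 1 or without day 0 G1 clone 7, each leaving 1 library that day. Calls were then fewer among all tested genes as well.

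In S, with 1 day 28 library against 2 on day 0 and the spread pooled over groups, only NHP2 passed (-1.21 ± 0.29, limma adjusted p = 0.0496), and 0 were higher, against 2.89% of all tested genes lower and 4.39% higher. The lone day 28 library is taken to vary as the other groups do. The median of the 34 in S was -0.58, against 0.05 over all tested genes. NOP56 was at -0.04 ± 0.36, POLR1A at 0.06 ± 0.42 and NPM1 at -1.45 ± 0.44 (limma adjusted p = 0.0769). Without either day 0 S library, which leaves 1 library a day, NHP2 was at -1.30 or -1.13 and lost the call. Without either day 28 G1 library NHP2 stayed at -1.21 and lost the call too. No tested gene passed in S without day 0 S clone 7 or without either day 28 G1 library. With the clone as a block, NHP2 and NPM1 passed, 2 genes in place of 1, against 6.50% of all tested genes lower in that fit.

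Matched libraries of 1 clone and phase can be set side by side. The median day 28 minus day 0 difference over the 34 was -1.27 in G1 clone 1, -1.06 in G1 clone 7, -0.55 in S clone 1 and -0.73 in G2 clone 1, against 0.05, -0.01, 0.05 and 0.02 over all tested genes. NIP7 moved most in G1 clone 1, at -2.74, and in G2, at -1.72, NHP2 in G1 clone 7, at -2.33, and NPM1 in S, at -1.39. In G1 clone 1 all 34 differences were negative, in G1 clone 7 32, and in S and G2 33 each. G2 has 1 library a day and so no test. Day 28 G1 clone 1 was below every day 0 library in 33 of the 34 genes and G1 clone 7 in 30, against 36.6% and 36.8% of tested genes. Day 28 S was below every day 0 library in 25, against 32.2% of tested genes, and day 28 G2 in 22, against 4212 of the 12403 tested genes.

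**Figure D3:**
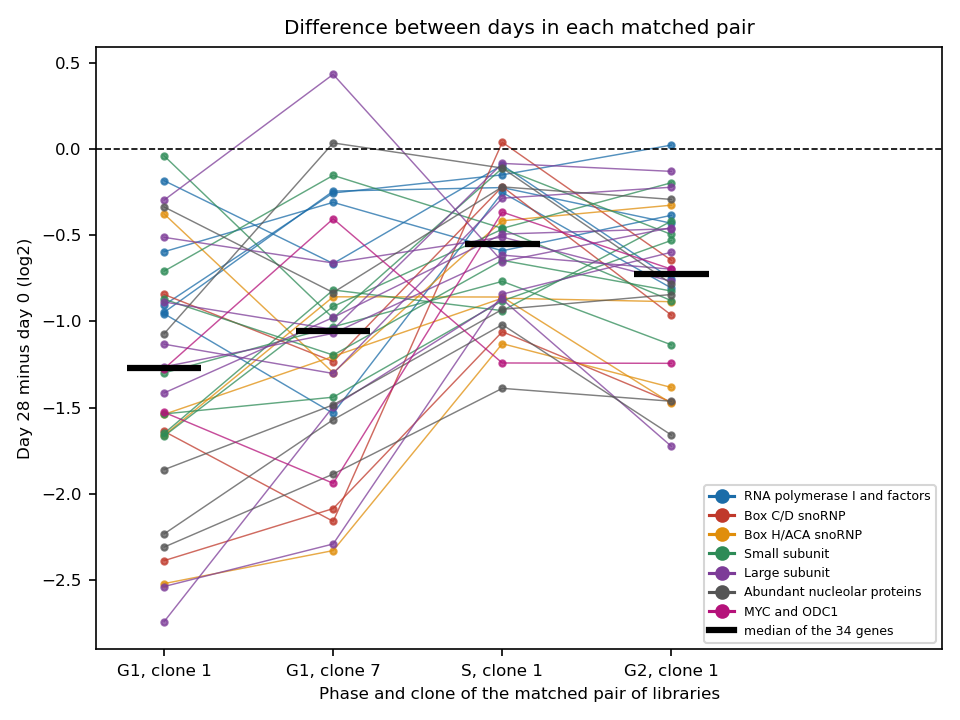
Each line is 1 of the 34 genes, coloured by role, and each point its log2 value on day 28 minus that on day 0 in the same phase and clone. Black bars are medians, at -1.27 and -1.06 in the G1 pairs, -0.55 in the S pair and -0.73 in the G2 pair.

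Within day 28, the cycling S and G2 libraries were compared with the G1 libraries. With the mean of S and G2 set against G1, 2 genes passed and both were higher, BOP1 by 1.69 ± 0.25 (limma adjusted p = 0.0143, 3.22-fold) and NOP56 by 1.66 ± 0.29 (limma adjusted p = 0.0250, 3.17-fold). Of all tested genes 2.89% were higher and 1.85% lower. The estimate was above 0 in 33 of the 34, RRN3 being at -0.01, and the median was 0.72, against 0.00 over all tested genes. In 25 of the 34 both cycling libraries were above both G1 libraries, a pattern of 28.2% of tested genes, and in 0 were both below, a pattern of 28.1%. At an unadjusted p under 0.05 there were 16, against 25.2% of all tested genes. NHP2 did not pass at 1.05 ± 0.24 (limma adjusted p = 0.0520). Without day 28 G1 clone 1 the count was 1, with NOP56 at 1.61 (limma adjusted p = 0.0761), and without day 28 G1 clone 7 it was 0, with BOP1 at 1.88 (limma adjusted p = 0.0667). With the clone as a block, the count was 7 in place of 2, against 3.97% of all tested genes higher in that fit. The S and G2 libraries are both of clone 1. Against G1 of clone 1 alone, the median difference was 0.82 for S and 0.88 for G2, and against G1 of clone 7 it was 0.36 and 0.61.

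On day 0 the phases were tested as S against G1, which gave 0 calls among the 34 in limma, as it did among all tested genes (0.00%), and 0 of the 34 had an unadjusted p under 0.05, against 3.60% of all. The median was 0.06, from -0.38 for MYC to 0.57 for RRP1B. Day 0 G2 has 1 library and was not tested. Against G1 of the same clone, its difference was above 0 in 30 of the 34, with a median of 0.36, against 0.09 over all tested genes, from -0.68 for MYC to 1.14 for GAR1. Whether the difference between the days was another one in the cycling phases (S and G2) than in G1 was tested as an interaction. It gave 0 calls among the 34 in limma and 0.00% among all tested genes, with 6 of the 34 at an unadjusted p under 0.05, against 11.1% of all. Its estimate was above 0, meaning a smaller drop in S and G2, in 30 of the 34, led by BOP1 (1.68 ± 0.33, limma adjusted p = 0.231), NOP56 (1.60 ± 0.39, limma adjusted p = 0.257), NHP2 (1.14 ± 0.31) and MYC (1.14 ± 0.33). Clone 7 against clone 1 gave 0 calls among the 34 in limma, with 6 at an unadjusted p under 0.05, against 15.6% of all tested genes. By the adjusted p, 0.226% of all tested genes were lower in clone 7 and 0.387% higher.

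The rest of the pathway was read from lists drawn up beside the 34 genes. Of 112 further ribosome biogenesis genes, all tested, 66 fell and 4 rose, with a median of -0.80. For this and the lists that follow, 26.5% of all tested genes fell and 28.6% rose. Of 45 further small subunit factors 33 fell and 0 rose, led by the processome protein WDR3 (-1.96 ± 0.17, limma adjusted p = 2.20e-05), IMP3 (-1.61 ± 0.28) of the same particle, and NOB1 (-1.46 ± 0.24), the nuclease that makes the final cut of small subunit rRNA. Of 46 further large subunit factors 26 fell and 3 rose, led by RSL1D1 (-1.76 ± 0.20, limma adjusted p = 8.17e-05) and NIFK (-1.67 ± 0.17). Of 10 snoRNP assembly factors 5 fell and 0 rose, led by the ATPase RUVBL1 (-1.91 ± 0.19, limma adjusted p = 4.15e-05) and by SNU13 (-1.27 ± 0.20), a snoRNP core protein. Of 11 further RNA polymerase I genes 2 fell, against 26.5% of all tested genes, the subunits POLR1E (-1.92 ± 0.37, limma adjusted p = 0.00130) and POLR1D (-0.86 ± 0.22), while TAF1C, of the promoter selectivity factor, rose (1.32 ± 0.21, limma adjusted p = 0.000465). POLR1E had 9.32, 8.09, 10.26 and 10.48 on day 28, against 11.65, 11.41, 11.41, 11.21 and 11.72 on day 0, so that the G1 libraries were lowest here as well.

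Of 22 genes of RNA polymerase III, which makes the transfer RNAs, 11 fell and 1 rose, against 26.5% and 28.6% of all tested genes. GTF3C6 of the factor TFIIIC (-1.87 ± 0.24) and the subunit POLR3K (-1.69 ± 0.35) fell most, and BDP1, of the factor TFIIIB, rose (1.30 ± 0.26). Of 8 RNA polymerase II subunits 4 fell, led by POLR2G (-1.35 ± 0.18), and of 5 subunits shared by all the polymerases 4 fell, led by POLR2E (-1.74 ± 0.24). Around ODC1, 7 of 9 further polyamine genes fell and 1 rose. Spermine synthase SMS (-1.38 ± 0.19) and spermidine synthase SRM (-1.16 ± 0.22) fell, and so did SMOX (-1.35 ± 0.28), spermine oxidase, an enzyme of polyamine breakdown. SAT1, which acetylates polyamines for breakdown or export, rose by 1.17 ± 0.35 (limma adjusted p = 0.0141), a call lost without day 0 G2 (limma adjusted p = 0.0536) or day 28 G2 (0.0523).

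Around MYC, 0 of 8 tested network genes fell and 4 rose, against 26.5% and 28.6% of all tested genes. MYCN, MYCL and MXD1 were too low to test. The coding spans of the 8 had a median of 38.4 kb, against 25.8 kb over tested genes, and longer genes tended to be higher on day 28. The 4 calls held with the trend over span removed. MXI1, a MAX partner that represses at E-boxes, had 10.95, 10.31, 10.25 and 9.89 on day 28, against 8.76, 8.73, 8.48, 8.45 and 8.14 on day 0. The groups did not overlap, with 1.82 ± 0.27 (limma adjusted p = 0.000290). MXD3, another such partner, had 11.65, 11.10, 13.23 and 14.23 on day 28 and 9.58, 10.51, 11.69, 11.79 and 12.03 on day 0. It was highest in S and G2 on both days, so the groups overlapped across phases, and with phase in the fit it rose by 1.58 ± 0.25 (limma adjusted p = 0.000444). MGA, a large MAX-binding protein, rose by 1.22 ± 0.24 (limma adjusted p = 0.00165) and MLXIP, which partners MLX, by 1.32 ± 0.34 (limma adjusted p = 0.00662).

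**Figure D4:**
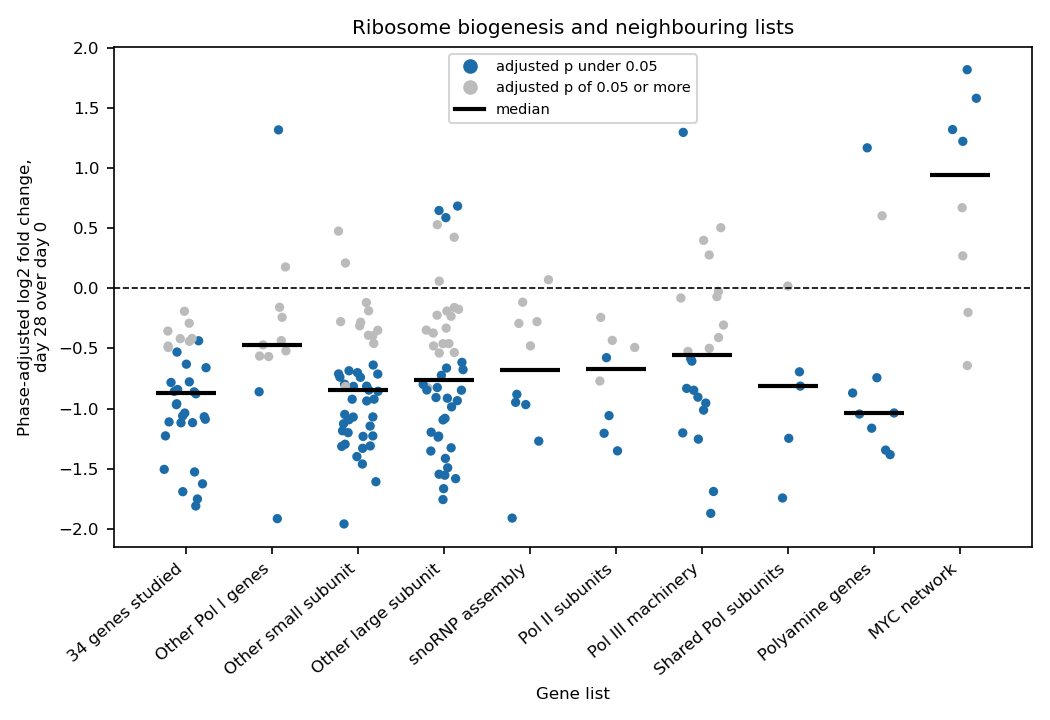
Points are genes, placed by list along the horizontal axis, with the phase-adjusted log2 fold change, day 28 over day 0, on the vertical axis. Blue points passed an adjusted p of 0.05 and black bars are list medians, -0.87 for the 34 genes studied. The MYC network is the list with its median above 0.

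The 34 genes, chosen with earlier results of these data known, tended to be shorter than tested genes in general. Their coding spans, introns included, had a median of 14.0 kb (1.82 to 105.8 kb), against 25.8 kb over tested genes, and the coding part was a median of 10.2% of the span, against 5.95%. Shorter genes were lower on day 28 in general. Up to 10 kb, 11 of 12 of these genes fell, against 37.8% of tested genes of that length, with medians of -1.09 and -0.42. Over 10 to 50 kb, 13 of 19 fell, against 30.3%, with medians of -0.78 and -0.15. Over 50 kb, 2 of 3 fell (UTP20 and WDR43), against 11.7%, with medians of -0.88 and 0.67. After the trend with span was removed, 23 of the 34 fell, against 25.4% of all tested genes. Spans over 300 kb took 2.06 to 3.41% of reads on day 28 and 0.726 to 1.05% on day 0.

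**Figure D5:**
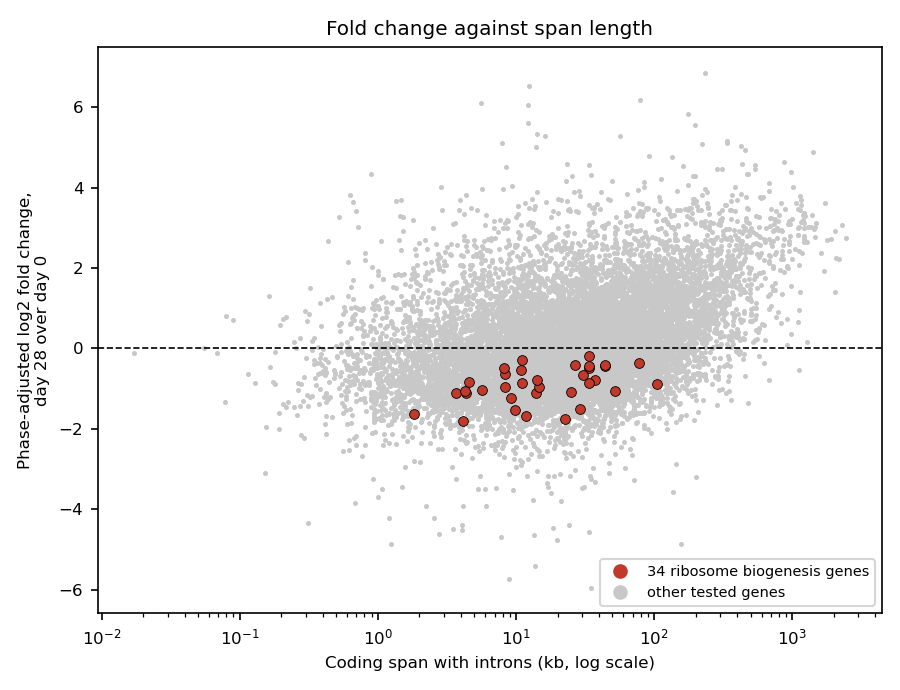
Each point is a tested gene, with its coding span in kilobases on a logarithmic horizontal axis and its phase-adjusted log2 fold change, day 28 over day 0, on the vertical axis. The 34 genes (red) all lie below 0 over spans of 1.82 to 105.8 kb, while the other genes drift upward with length.

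Introns of some of these genes hold snoRNAs, the guides of the snoRNPs. On the same strand, 7 of the 34 (20.6%) hosted 24 annotated snoRNAs, against 1.60% of tested genes. GNL3 hosted 6, NOP56 5, NOP58 4, NCL and WDR43 3 each, DKC1 2 and POLR1C 1. Of these hosts, GNL3 was the one that did not pass in the comparison of days, though it did from its row with the narrowest span.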

How the data were processed

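Log2 values for 80037 coding transcripts in 9 libraries were deposited, 1 column per library. Per the labels' protocols, poly(A) RNA was isolated, the libraries were strand-specific and amplified over 10 to 18 PCR cycles, and reads were 75 bp long and single-end. The submitters' processing notes name HISAT2 2.1.0, the build GRCh38 and DESeq2. The read counter, its use of strand and the scaling are not given in the sources used here. Checked from the values, every deposited log2 value is that of whole reads multiplied by a factor for its library, and 0.9 reads stand where there were none (100% whole within 0.05 reads, up to 1000 reads). Totals and shares are of these recovered reads over 1 span per gene, whose mean per library was 43.0 M. The labels give an average depth of about 24 M, and the gap was not resolved.

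Each gene was read from its row with the highest mean. A pseudocount of 1 was added on the linear scale before log2 was taken again. Genes were tested from a mean of 7.01 upward, which is what 10 reads give in the shallowest library (12403 of 20435). Tests were made with limma 3.58.1 (eBayes with trend, Benjamini-Hochberg adjustment over all tested genes) in R 4.3.3 with the data.table package (version 1.17.8). Summaries were made with Python 3.11.15, numpy 2.4.6, pandas 2.3.3 and matplotlib 3.10.9. The tests were tried on simulated reads with independent noise and no effect of span. That setting is simpler than these data, and no result here rests on it. The comparison of days over phases had terms for day and phase, the interaction added day by cycling phase, the clone comparison had clone, day and phase, and the others used group means with a pooled spread. The members, the other lists and the tests were chosen with earlier results of these data known. All 34 members are named. In each role the largest and smallest change between days, and MYC, ODC1, NPM1, NCL, POLR1A, POLR1B, UBTF and RRN3, have their value in every library, and so do a few others chosen after their values were seen. Other lists name up to 4 called genes with the largest change. One gene of the leukocyte marker list is not reported here, and the list was summed without it.

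Groups share clone numbers. Per gene, clone 7 was set against clone 1 in each group that holds both. These deviations had a Pearson r of 0.651 for the G1 and S groups of day 0. Across days r was lower, at 0.114 for the 2 G1 groups and 0.295 for day 0 S with day 28 G1. Pairing by clone was therefore stronger within day 0 than across the days. A replicate block for the clone was an alternative, printed where it ended a call or moved a count by over 1.5 times. The other alternatives were 2 scalings, other filters and pseudocounts, clone 1 alone, the narrowest span of each gene, removal of the trend with span, limma-voom on the recovered reads, and leaving out each library. Promoters are from RefSeq GRCh38.p14, and spans and overlaps from the GENCODE annotation of GRCh38.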

Additional observations from a re-analysis of the deposited data

Results flagged for a closer look

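Values that stood apart within a day's libraries were looked for in each of the 34 genes, with 68 gene and day groups checked and 2 flagged. Chance flags about 1 in 20 such groups. GAR1 was higher in the day 28 G2 library, at 12.3183, than in the other day 28 libraries (11.12, 10.95 and 11.18), the gap being 0.833 of the whole range. WDR43 was lower in day 28 G1 clone 1, at 11.9376, than in the other day 28 libraries (12.65, 12.64 and 12.65), the gap being 0.990 of the whole range. The GAR1 call between days was lost without several single libraries, and the WDR43 call over phases held in every alternative that was run for it. Within G1 the WDR43 call was lost without day 28 G1 clone 1 (-0.81, limma adjusted p = 0.102) and without day 0 G1 clone 7 (-0.94, limma adjusted p = 0.0923).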

How the results depend on the processing

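The count of 26 genes lower on day 28 ranged from 19 (quantile scaling) to 29 (median-of-ratios scaling). With 1 library left out it was 21 to 27. Of all 12403 tested genes 3407 were lower with quantile scaling and 3778 with median-of-ratios scaling, against 3292 in the main run. With 1 library left out this count was 2762 to 3196. The median of all tested genes moved to -0.11 with quantile scaling, -0.10 with median-of-ratios scaling and -0.39 on the narrowest span, against 0.02. Of the 26, 18 kept the call in every alternative run and 8 lost it in at least 1 (POLR1C, NOP56, NOP58, GAR1, PES1, NOP2, RRP1 and NCL). Of the 8 uncalled genes 7 were called in at least 1. GNL3 reversed with quantile scaling (0.0549) and passed on the narrowest span (-1.37, limma adjusted p = 0.000576). In G1 the count of 22 lower ranged from 12 to 22 with 1 library left out. In S the count of 1 was 0 with quantile scaling or the span trend removed. It was 2 with no filter, the clone as a replicate block, the narrowest span or limma-voom. Of all tested genes 359 were lower in the main run, 419 with quantile scaling and 373 with the span trend removed. This count was 767 of 20435 with no filter, 806 with the clone block, 258 of 8663 on the narrowest span and 616 with limma-voom. Without day 0 S clone 7 or either day 28 G1 library, no tested gene passed. For cycling cells against G1 on day 28, the count of 2 higher was 6 with quantile scaling and 4 with no filter or limma-voom. It was 7 with the clone as a replicate block and 1 on the narrowest span. Of all tested genes 359 were higher in the main run and 689 with quantile scaling. This count was 592 of 20435 with no filter, 564 with limma-voom, 493 with the clone block and 236 of 8663 on the narrowest span. Without either day 28 G1 library the count shrank, among the 34 and among all tested genes. On the narrowest span DKC1 and RRN3 were called lower there. In clone 1 alone, with 1 library per day and phase, BOP1 passed in the interaction, as did genes outside the 34. In the main fit 0 genes passed. The causes were not tested. The clone as a replicate block moved no other count by over 1.5 times, but ended the NOP2 call (-0.50, limma adjusted p = 0.054). The narrowest span could not be tested for 6 genes (MYC, WDR43, WDR75, RRP12, POLR1A and POLR1B). Comparisons that need the library left out, and clone 1 alone for comparisons of group means and for the clone, could not be fitted. The lowest count behind any value of the 34 genes was 83 recovered reads.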
